A study of Mus musculus with 2 samples.

Results

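The genes described here are 9 secretory genes of the mouse seminal vesicle, Svs2, Svs3a, Svs3b, Svs4, Svs5, Svs6, Pate4, Sva and Ceacam10, of 19320 features measured in single cells of prostate lesions. They were selected on their measured levels in these same cells, so those levels are a description and carry no test. Their UMIs (unique molecular identifiers, tags that mark single captured RNA molecules) were read across subgroups of luminal-like epithelial cells, in cells that should lack the genes, and beside the lineage reporter EGFP and the prostate gene Pbsn in the same cell. Of the cells kept, 2826 of barcode set 1 and 7860 of barcode set 2 were luminal-like.

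Prostatic tissue with prostatic intraepithelial neoplasia (PIN, 1 sample) and with prostatic adenocarcinoma (PCa, 1 sample) was dissociated and sequenced by droplet-based 3′ single-cell RNA-seq. Both samples carried the transgene hARtg, switched on by Cre recombinase from the Osr1 promoter. By the study's text the mice were R26 mTmG/hAR:Osr1 Cre/+, aged 6 months (PIN) and 12 months (PCa), and the same Cre event turned on a membrane-bound GFP, so that GFP marks Osr1-expressing cells and their descendants. Normal prostate and seminal vesicle were not analysed here. Cells carried 1 of 2 barcode endings, and neither the labels nor the column names tie an ending to a lesion. The cell numbers that the study's text gives for its lesions are close to those of the sets, but samples were grouped by the labels alone. The sets are therefore called barcode set 1 and barcode set 2, and no value is assigned to PIN or PCa. With 1 library per set there was no replicate check, and the 95% intervals given cover counting error only.

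The median depth was 17235 UMIs over the 6332 cells of set 1 and 14824 UMIs over the 9410 cells of set 2. The sets shared 67 barcodes. Levels are CPM, UMIs of a gene summed over the cells of a group and scaled to a total of 1000000 UMIs. A 3′ library counts transcript ends, so levels were not divided by gene length. Cell classes were named from fixed markers, and the 9 genes were kept out of the clustering.

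The seminal vesicle is an androgen-dependent gland that supplies most of the fluid of the ejaculate. Its epithelium secretes a few small proteins in great amount, and several Svs proteins are cross-linked by a transglutaminase of the prostate into the copulatory plug. The gland arises from the Wolffian duct, whereas the prostate arises from the urogenital sinus.

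The Svs genes lay side by side on chromosome 2, within 98.5 kb at chr2:164235929-164334394 (RefSeq, GRCm38.p6), in the order Svs2, Svs3b, Svs4, Svs3a, Svs6 and Svs5. Ceacam10 lay at chr7:24777167-24784656, Sva at chr6:42038394-42042851 and Pate4 at chr9:35607093-35611885. Promoter sequence from RefSeq was matched for 8 of the 9 genes, all but Pate4. The 250 bases before the start are shown for Svs3a with Svs3b and for Svs5 with Svs6, because the promoters of each pair are near copies. Capitals mark the bases that differ within a pair.
Svs3a, chr2:164289017-164289266, plus strand: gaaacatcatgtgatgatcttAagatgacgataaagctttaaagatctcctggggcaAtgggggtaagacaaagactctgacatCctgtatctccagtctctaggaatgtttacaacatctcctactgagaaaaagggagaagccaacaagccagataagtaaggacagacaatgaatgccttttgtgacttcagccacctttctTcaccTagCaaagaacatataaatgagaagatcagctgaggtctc
Svs3b, chr2:164256644-164256893, minus strand: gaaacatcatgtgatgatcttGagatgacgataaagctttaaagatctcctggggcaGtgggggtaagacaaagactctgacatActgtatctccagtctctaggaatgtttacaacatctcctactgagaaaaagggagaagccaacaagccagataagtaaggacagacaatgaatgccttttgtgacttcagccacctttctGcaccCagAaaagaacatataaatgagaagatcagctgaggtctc
Svs5, chr2:164332515-164332764, plus strand: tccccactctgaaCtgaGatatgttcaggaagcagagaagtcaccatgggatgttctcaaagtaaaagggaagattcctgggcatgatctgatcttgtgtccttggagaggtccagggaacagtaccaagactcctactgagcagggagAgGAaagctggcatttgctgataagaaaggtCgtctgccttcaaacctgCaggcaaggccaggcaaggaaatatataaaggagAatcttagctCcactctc
Svs6, chr2:164316501-164316750, plus strand: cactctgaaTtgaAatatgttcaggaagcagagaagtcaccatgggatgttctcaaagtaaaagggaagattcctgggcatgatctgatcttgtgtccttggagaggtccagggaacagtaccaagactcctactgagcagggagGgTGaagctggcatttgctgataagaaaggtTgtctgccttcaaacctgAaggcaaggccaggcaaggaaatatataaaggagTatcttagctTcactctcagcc

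The windows of Svs3a and Svs3b differed at 6 of 250 bases. Those of Svs5 and Svs6, read with a shift of 4 bases, differed at 9 of 246 bases. Across the pairs the best ungapped match was far lower, 34.4% for Svs3a with Svs5 and 39.2% for Svs4 with Svs5. On the coding strand the letters TATAAA began in the last 40 bases before the start in 5 of the 8 promoters (Svs3a, Svs3b, Svs4, Svs5 and Svs6), against 2.55% of 27025 mouse promoters. In this count and the next, both windows of each near-copy pair are included, although they are not separate observations. AGAACA, or its reverse complement TGTTCT, letters found in the elements that steroid receptors bind, was present in 6 of the 8 windows against 16.2% of all promoters. Ceacam10, the highest member in set 1, held these letters 3 times, and 1.84% of all promoters held them 2 or more times. Its window is shown with the matches in capitals.
Ceacam10, chr7:24776917-24777166, plus strand: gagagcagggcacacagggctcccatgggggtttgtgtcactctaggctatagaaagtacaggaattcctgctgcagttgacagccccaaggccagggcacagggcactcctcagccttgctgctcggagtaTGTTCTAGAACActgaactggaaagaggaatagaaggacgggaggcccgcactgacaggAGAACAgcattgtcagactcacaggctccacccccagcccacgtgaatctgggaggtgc

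These matches describe letters, and no binding was measured. In the transcripts, 26.2% of the 50-base stretches in the last 500 bases of Svs3a also occurred in Svs3b, and 14.9% of those of Svs3b in Svs3a. The UMIs of these genes are therefore uncertain, since counting could have dropped reads that match both. No other pair of members shared such a stretch.

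The 9 genes were abundant in the luminal-like cells of set 2, and in those of set 1 all but Ceacam10 lay below 1 CPM. Together they reached 3141 CPM (3133 to 3149) in set 2, from 536605 UMIs (1844 CPM without the top 1% of cells), and 13.7 CPM (13.0 to 14.5) in set 1, from 1248 UMIs. All 9 genes were at least 2-fold higher in set 2, as were 10.7% of 9507 features. The choice of the genes rests on levels in these same cells, so nothing is read from that count.

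The cells compared were also of different kinds. Luminal-like cells of set 1 lay mostly in clusters 5 (1212 cells), 6 (586) and 10 (447), and those of set 2 in clusters 1 (1784), 3 (1553), 2 (1523) and 4 (1511). Markers of other classes were high in luminal-like cells of set 1, where leukocyte markers summed to 3866 CPM, basal markers to 945 CPM and proximal or urethral markers to 4147 CPM. In the luminal-like cells of set 2 outside the member-high cells described later, the same sums were 10.9, 48.4 and 521 CPM. The part of these differences in the levels of the 9 genes was not tested.

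Pate4, a small secreted protein of the Ly6/uPAR type that binds sperm, was the highest in set 2 at 1191 CPM and had 0.704 CPM in set 1. Svs3b and Svs3a, the near-copy pair, had 619 and 445 CPM in set 2 and 2 UMIs each in set 1. Svs4, an androgen-dependent secretory protein, had 411 CPM in set 2 and 7 UMIs in set 1. Svs5 had 297 CPM in set 2 and none among the 90881037 UMIs of luminal-like cells of set 1, where 3 UMIs are 0.033 CPM. These were the abundant members of set 2, and none of them but Pate4 had more than 7 UMIs in set 1.

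The other members were lower in set 2. Ceacam10, a secreted member of the carcinoembryonic antigen family, had 71.8 CPM, and Sva, the seminal vesicle autoantigen, had 54.2 CPM. Svs6 had 28.5 CPM, and Svs2, a clotting protein of the plug, had 23.7 CPM. No neighbors in this order of 9 genes had overlapping intervals, but these leave out the spread between cells and do not fix the order. A single cell held 1069 of the 4052 Svs2 UMIs. The highest cell also held 1022 of the 4866 Svs6 UMIs and 1592 of the 12264 Ceacam10 UMIs. Svs2 was detected in 575 cells of set 2, and Svs6 and Ceacam10 in 371 each. In set 1 the order was another, and Ceacam10 led with 12.6 CPM (11.9 to 13.4), 92.1% of the member UMIs. Ceacam10 differed least between the sets, by a log2 ratio of 2.51 (2.42 to 2.59), and the sum without it differed by 11.46.

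**Figure D1:**
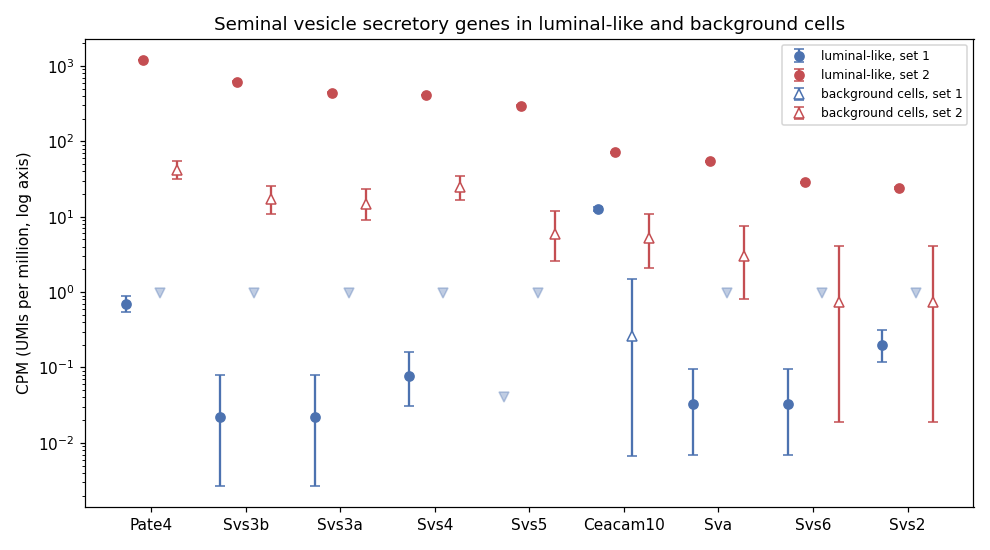
CPM of each of the 9 genes on a log axis in luminal-like cells and background cells (open triangles) of set 1 (blue) and set 2 (red), with exact 95% Poisson intervals; a pale triangle marks the upper limit where no UMI was counted. In luminal-like cells of set 2 Pate4 lies at 1191 CPM and Svs2 at 23.7 CPM, while in set 1 Ceacam10 at 12.6 CPM stands above the other members.

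Free RNA of broken cells gives UMIs in droplets of any cell. Cells with a UMI of Ptprc, the leukocyte antigen CD45, and none of Epcam, an epithelial adhesion protein, were therefore read as background. Leukocyte markers summed to 22949 CPM and luminal markers to 713 CPM in the background cells of set 2. In set 1 the 706 background cells held 1 member UMI, of Ceacam10. In set 2 the 168 background cells held 153 member UMIs, or 114 CPM (96.7 to 133.6).

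Luminal-like cells of set 2 stood 27.5-fold above the background cells, a log2 ratio of 4.78 (4.56 to 5.02). This ratio was 4.02 without the top 1% of luminal-like cells. A stricter background gate, of 3 or more Ptprc UMIs and none of Epcam, Krt8 and Krt18, left 3 cells with 4 member UMIs and gave 3.57 (2.21 to 5.44). By gene the ratio ran from 3.78 for Ceacam10 to 5.64 for Svs5, and all 9 genes were at least 2-fold higher, as were 29.2% of 10202 features. In set 1 Ceacam10 was the only member that reached 5 CPM, the least required on either side for such counts. It was above background by a log2 ratio of 5.58 (3.096 to 10.88), a value that rests on the 1 background UMI, and 22.6% of 10726 features were at least 2-fold higher there. For the sum of the 9 genes the ratio in set 1 was 5.70. The stricter gate left 101 cells with 0 member UMIs in set 1, so that the ratio of the sum was at least 1.12, and without the cell that held the 1 UMI it was at least 4.11.

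Most other classes of set 2 had levels like those of the background cells. Basal-like cells had 93.8 CPM, smooth muscle-like cells 90.9 CPM and proximal or urethral luminal-like cells 116 CPM. Endothelium-like cells were lower, at 68.8 CPM (57.8 to 81.4), and fibroblast-like cells were higher, at 191 CPM (173 to 211), with 66 of their 399 member UMIs in a single cell. Pate4 made up 26.6% of the member UMIs in basal-like, 37.5% in endothelium-like, 49.4% in fibroblast-like and 36.6% in background cells, against 37.9% in luminal-like cells. Ceacam10 made up 22.3% in proximal or urethral luminal-like cells against 2.29% in luminal-like cells.

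Leukocyte-like cells of set 2 reached 1198 CPM, but a single cell held 2318 of their 2621 member UMIs. That cell had 12 UMIs of Epcam and 120 of Krt8, a luminal keratin, and none of the macrophage genes C1qa and Lyz2. Without it the leukocyte-like cells stood at 139.9 CPM.

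The share of cells with a member UMI was compared after each cell had been thinned to 3000 UMIs. In set 2 it was 38.3% (37.3 to 39.4) of luminal-like cells, whose median depth was 16710 UMIs, and 29.0% (22.0 to 36.9) of background cells, whose median was 7481.5. In set 1 it was 3.1% (2.49 to 3.81), at a median depth of 29106 (6.17% when thinned to 6000 UMIs), and 0.187%, at a median of 3803. Before thinning the shares were 73.7% and 56.0% in set 2 and 17.8% and 0.142% in set 1. Cells below 3000 UMIs were left out, 92 luminal-like and 13 background cells in set 2, and 20 and 170 in set 1.

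Clusters 2 and 5 of set 2 were far above the share of background cells, at 73.3% and 82.7% after thinning. Clusters 1, 3, 6 and 12, at 23.2%, 23.7%, 21.4% and 18.6%, were at or below it, so a single member UMI in their cells is read as background. Their summed levels, from 179 to 264 CPM, were above the 114 CPM of the background cells, and a few cells weighed on them. In cluster 12 a single cell held 251 of 401 member UMIs, and in cluster 1 a single cell held 1550 of 7480.

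The level of set 2 was carried by a small part of its cells. The median luminal-like cell of set 2 gave 0.00931% of its UMIs to the 9 genes, and 26.3% of cells gave none. At the other end 168 cells gave 3% or more, 47 gave 10% or more and 5 gave 30% or more. The 3 highest cells gave 52.0%, 43.3% and 38.2% of all their UMIs to these 9 genes. The top 5% of cells (393) held 79.7% of the member UMIs, and the top 1% (79) held 41.8%. In set 1 the highest luminal-like cell gave 0.0878%, and 82.2% of cells gave none.

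**Figure D2:**
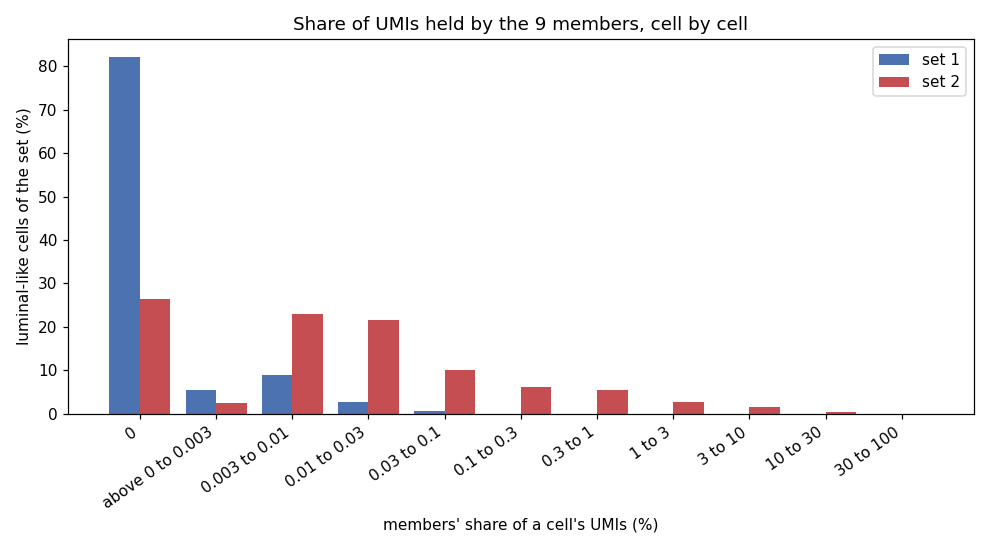
Percent of the luminal-like cells of set 1 and of set 2 (vertical axis) by the share of a cell's UMIs that the 9 members held (bins along the horizontal axis). In set 1 82.2% of cells lie at 0 and the highest cell is at 0.0878%, while the cells of set 2 extend to 52.0%.

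Cells in which the 9 genes held 1% or more of all UMIs are called member-high. Set 2 had 388 of them, 4.94% of its luminal-like cells, and they held 79.5% of the member UMIs. Set 1 had 0 of 2826, which allows a share of up to 0.106%. The limit cut a continuous range, with the nearest cells at 1.0036% inside and 0.9989% outside and 386 cells between 0.5% and 2%. Another 5 member-high cells of set 2 had been left out as doublets.

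By subgroup, cluster 5 of set 2, with 244 cells, had the highest summed level at 25368 CPM (25225 to 25512). Cluster 2, with 1523 cells, followed at 9105 CPM (9073 to 9136). Clusters 7 and 4 had 1221 CPM (1207 to 1235) and 1205 CPM (1194 to 1217), with overlapping intervals. Below them came cluster 10 with 670 CPM (637 to 704), where a single cell held 585 of 1567 member UMIs. A single cell also held 16467 of 120560 member UMIs in cluster 5 and 5602 of 29933 in cluster 7. Clusters 1 and 3 had 264 CPM each, cluster 12 had 221 CPM and cluster 6 had 179 CPM. Most member-high cells lay in cluster 2 (250 cells, 16.4% of the cluster) and cluster 5 (87 cells, 35.7%), and 26 lay in cluster 4 and 15 in cluster 7. When the sets were clustered without integration, 342 of the 388 cells (88.1%) fell into a single cluster, which held 1922 cells of set 2 and none of set 1.

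Outside the members, cluster 2 of set 2 was led against the other luminal-like cells of the set by D730048I06Rik (984 against 112 CPM), followed by Ly6c1, Ly6a, Lcn2, Gpx3 and Wfdc12. Cluster 5 of set 2 was led by Sprr2f (218 against 1.97 CPM) and Clu (8941 against 754 CPM), and Psca and Ly6d, markers of the proximal or urethral class, were among its 10 leading genes. Cluster 5 held 1212 cells of set 1, in which the summed member level was 10.7 CPM.

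The members did not keep fixed proportions across subgroups of set 2. Pate4 made up 63.4% of the member UMIs in cluster 3, 41.2% in cluster 2 and 30.1% in cluster 5. Svs5 made up 3.06% in cluster 3, 7.54% in cluster 2 and 16.1% in cluster 5. A single cell held 6983 of the 19371 Svs5 UMIs in cluster 5 and another held 5733 of the 24516 in cluster 2. The part of these cells in the shares was not tested. Ceacam10 made up 1.37% in cluster 2 and 4.95% in cluster 5. In cluster 6 it made up 31.9%, but a single cell held 181 of its 382 UMIs. Without that cell Ceacam10 fell from 57.1 to 30.3 CPM there and made up 20.2%. Sva was the only member higher in cluster 2 (208 CPM) than in cluster 5 (142 CPM).

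**Figure D3:**
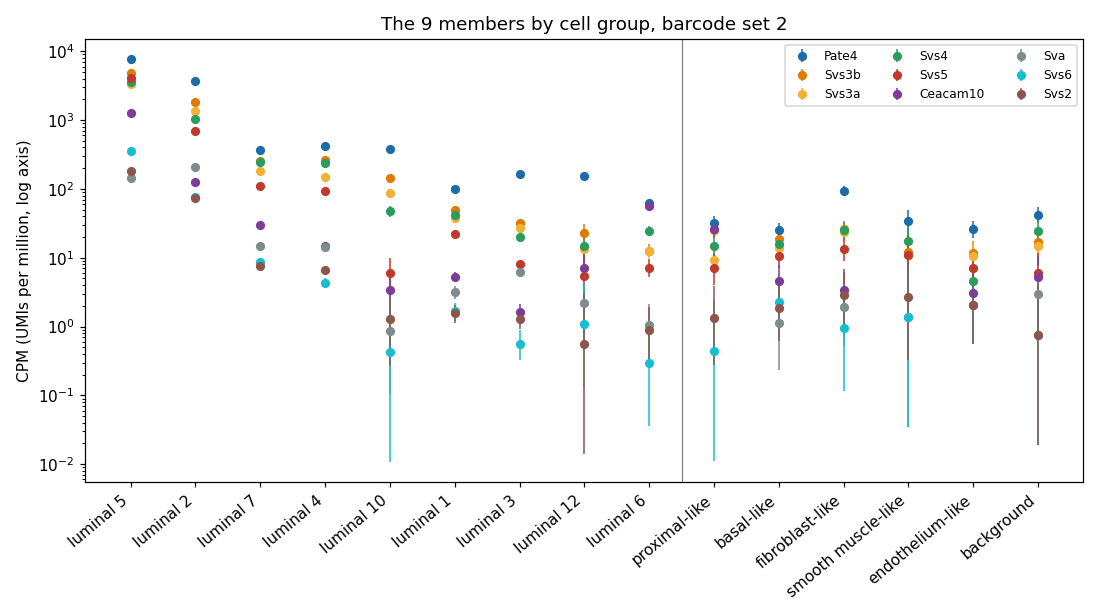
CPM on a log axis of each of the 9 genes in set 2, by luminal-like cluster and in other cell classes and background cells, with exact 95% Poisson intervals; genes without a UMI in a group and the leukocyte-like cells are not drawn. Clusters 5 and 2, with summed levels of 25368 and 9105 CPM, stand above the other groups.

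Within the 388 member-high cells most members were found together. The median cell had UMIs of 7 of the 9 genes, and 47 cells had all 9. Pate4 was detected in 384 of these cells, Svs3a in 377, Svs3b in 371, Svs4 in 347 and Svs5 in 301. Svs2 was detected in 232 (59.8%), Svs6 in 50.3%, Sva in 170 (43.8%) and Ceacam10 in 98 (25.3%). The gene with the most UMIs was Pate4 in 224 cells, Svs3b in 82, Svs3a and Svs4 in 29 each, Svs5 in 12, Ceacam10 in 9 and Sva in 3.

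A single product took a large part of some cells. Svs5 reached 22.1% of all UMIs of a cell, Pate4 18.02%, Svs4 16.8%, Svs3a 8.51%, Sva 7.15% and Ceacam10 5.03%. Ceacam10 made up 10% or more of the member UMIs in 24 cells and Sva in 14 cells, and no cell had both. With so few cells of either kind among the 388, this overlap of 0 says little, and nothing is read from it. The median share of either gene was 0.

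As a description, Pearson correlations of ln(1 + UMIs per 10000) across the 388 member-high cells were 0.82 for Svs3a with Svs3b, 0.71 for Svs4 with Svs5 and 0.70 for Svs5 with Svs6. Pate4, although present in nearly all of these cells, had r between -0.04 and 0.11 with the Svs genes. These cells share a library and were chosen by the sum of the same genes. Across all 7860 luminal-like cells of set 2 the values were 0.87, 0.65 and 0.69 for the same pairs, and 0.72 for Pate4 with Svs3b. In the 306 cells with 50 or more UMIs of Svs3a and Svs3b, Svs3b made up a median of 62.8% of the pair, with 10th and 90th percentiles of 35.3% and 82.2%.

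For EGFP, luminal-like cells had 10098 CPM in set 2 and 920 CPM in set 1, and background cells had 426 and 41.9 CPM. In set 2 nearly all luminal-like cells, 7688 of 7860, had 5 or more EGFP UMIs, and their summed member level was 3196 CPM. The 156 cells with 1 to 4 EGFP UMIs had 92.8 CPM, and the 16 cells without EGFP had 193 CPM (134.1 to 268), of which 25 of 35 UMIs were Ceacam10. All 388 member-high cells were among those with 5 or more EGFP UMIs. None was among the 172 cells below 5, which allows a share of up to 1.74%. Background cells had 426 CPM of EGFP, and member-high cells a median depth of 22424 UMIs. Free RNA alone could therefore bring a cell of that depth to 5 EGFP UMIs, and the counts at this limit are not read as co-expression. As a group the member-high cells had 11537 CPM of EGFP, far above the background cells. The log2 ratio of cells with 5 or more over those with 0 was 4.05 (3.58 to 4.57), a value that rests on the 16 cells without EGFP, in which Pbsn was 8192 CPM against 222 CPM. It was 5.02 against all cells with 0 to 4 UMIs, and 6.02 when luminal-like cells were taken by a gate.

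Among cells that carried EGFP, its level differed little between member-high and other cells. EGFP was 11537 CPM in member-high and 10007 CPM in the other luminal-like cells of set 2. Inside cluster 2 EGFP was 12342 and 12248 CPM, and inside cluster 5 it was 10173 and 10126 CPM. The summed member level was 2902 CPM in the 25% of luminal-like cells with the lowest share of EGFP. It was 4095 CPM in the 25% with the highest share. Member-high cells numbered 61 and 137 of the 1965 cells in each group. The pooled levels of the members moved in opposite directions. In the same order, Pate4 was 618 and 1938 CPM and Sva 16.01 and 93.53 CPM, and Svs3a and Svs3b were also higher. Svs5 was 568 and 186 CPM, Svs6 75.9 and 9.68 CPM and Ceacam10 106 and 50.8 CPM, and Svs2 and Svs4 were also lower. The share of EGFP was taken of totals that include the members, so many member UMIs in a cell lower it. Among luminal-like cells of set 2, single cells held 5559 of 70161 Svs4 UMIs and 6983 of 50743 Svs5 UMIs. For Svs2 and Svs6 the highest cell held 1069 of 4052 and 1022 of 4866 UMIs. The part of such cells in the levels of the single genes was not tested, so these directions are not fixed. Within clusters the direction of the summed level differed. The sum was higher with more EGFP in 5 of 9 clusters (3, 6, 7, 10 and 12) and lower in 4 (1, 2, 4 and 5). The widest gaps, again from the cells with the lowest to those with the highest share, were 59.3 and 1882 CPM in cluster 10, 70.9 and 632 CPM in cluster 12, 90.6 and 389 CPM in cluster 6, and 35109 and 8852 CPM in cluster 5. Each side held 26 cells in cluster 10, 23 in cluster 12, 69 in cluster 6 and 61 in cluster 5. In cluster 5, 20 cells on each side were member-high. Single cells weighed on these levels. Without the highest cell of each group they were 53.2 and 798 CPM in cluster 10, 66.6 and 125 CPM in cluster 12, 76.0 and 292 CPM in cluster 6, and 22093 and 7094 CPM in cluster 5. In cluster 2 the levels of 9191 and 7945 CPM became 7528 and 7487 CPM. Osr1 had 4 UMIs in the member-high cells and 50 in the other cells.

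In set 1, 1354 of the 2826 luminal-like cells had no EGFP. The summed member level was 11.2 CPM in these, 12.5 CPM in cells with 1 to 4 EGFP UMIs and 20.8 CPM in the 513 cells with 5 or more, a log2 ratio of 0.90 (0.70 to 1.10). Ceacam10 was 10.97 CPM without EGFP and 17.5 CPM with 5 or more UMIs, a log2 ratio of 0.67. It was the only member above 5 CPM and was not 2-fold higher, while 3.70% of 9174 features were. Pate4 had 1 UMI without EGFP and 46 with 5 or more, a log2 ratio of 6.49 (3.94 to 11.82). Both levels, 0.026 and 2.37 CPM, were below the minimum of 5 CPM. The 64 Pate4 UMIs of luminal-like cells of set 1 lay in 17 cells, with up to 16 in a cell. Of these UMIs 59 were in cluster 2, where 203 of 252 cells had 5 or more EGFP UMIs. Within clusters the ratio of the sum was 0.53 in cluster 5, 0.77 in cluster 10 and 0.96 in cluster 6. In clusters 2 and 12 it was 0.38 and -0.49, with intervals that held 0.

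Pbsn encodes probasin, an androgen-regulated secretory protein of prostatic luminal cells. In set 2 the summed member level was 3446 CPM in the 6059 luminal-like cells without Pbsn, 3071 CPM in the 1312 cells with 1 to 4 UMIs and 687 CPM in the 489 cells with 5 or more. The log2 ratio of the last over the first was -2.33 (-2.36 to -2.30). It was -0.53 for cells with 1 or more Pbsn UMIs over cells with none, and -1.503 without the top 1% of cells. With 5 or more Pbsn UMIs against none, all 9 genes were at least 2-fold lower, as were 3.55% of 9026 features. In that split Svs6 had a log2 ratio of -3.49 and Sva of -1.71. Sva was not lower throughout, with 47.2 CPM without Pbsn, 94.5 CPM with 1 to 4 UMIs and 14.4 CPM with 5 or more. The other members were lower with 1 to 4 Pbsn UMIs than without Pbsn. Some cells held both products, since 8 of the 489 cells with 5 or more Pbsn UMIs (1.64%, 0.709 to 3.198) were member-high, against 310 of 6059 (5.12%).

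The relation with Pbsn differed between clusters. Cluster 6, the lowest for the members in set 2, had 7240 CPM of Pbsn, and clusters 2 and 5 had 23.3 and 31.4 CPM. Within clusters of set 2 the log2 ratio of the member sum was -0.77 in clusters 2 and 7, -2.36 in cluster 10 and 0.60 in cluster 3. Cells with 5 or more Pbsn UMIs were few, 26, 25 and 29 in clusters 2, 7 and 10, against 135 in cluster 3. In cluster 2, 4 of the 26 were member-high, against 202 of 1224 cells without Pbsn. In cluster 7 the counts were 1 of 25 and 12 of 613. In cluster 10 a single cell held 585 of 1567 member UMIs. Inside cluster 5 Pbsn was 45.0 CPM in member-high and 24.8 CPM in other cells. In set 1 the pooled ratio was -0.24 (-0.47 to -0.0062), and it turned to 0.0987 without integration and to 0.0825 for cells with 1 or more UMIs over cells with none. It was 0.73 within cluster 5 and 2.19 within cluster 10, so the pooled direction did not hold within these clusters. Ceacam10, the only member above 5 CPM there, had a ratio of -0.22 and was not 2-fold lower, while 4.50% of 9194 features were.

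**Figure D4:**
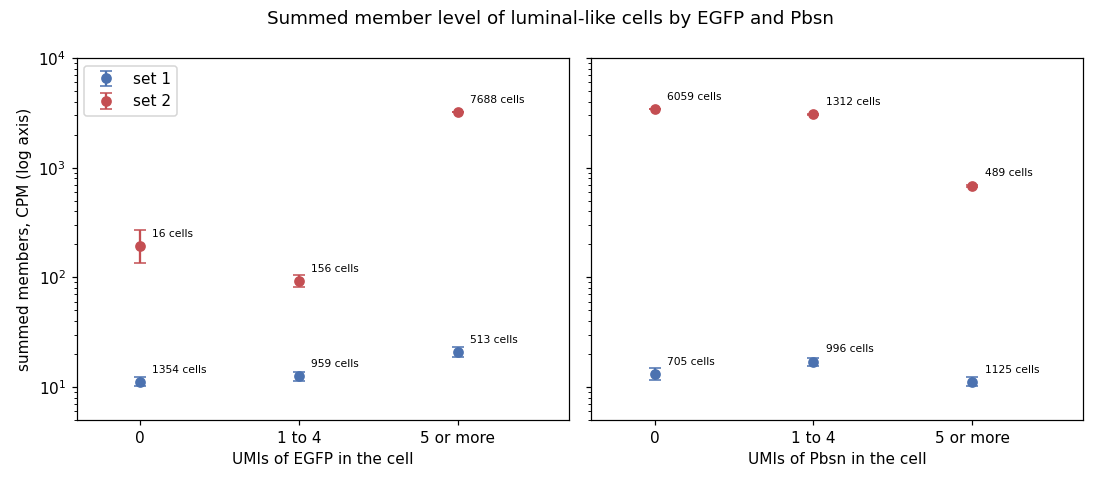
Summed CPM of the 9 members on a log axis in luminal-like cells of set 1 and set 2, by the number of EGFP UMIs and of Pbsn UMIs in the cell, with exact 95% Poisson intervals and the number of cells beside each point. In set 2 the level is 3196 CPM with 5 or more EGFP UMIs and 92.8 CPM with 1 to 4, and it is 687 CPM with 5 or more Pbsn UMIs and 3446 CPM without Pbsn.

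The 388 member-high cells of set 2 were set against the other 7472 luminal-like cells of the set for other genes of seminal fluid and the male tract. The members summed to 42346 and 683 CPM and all 9 were higher, which the definition of the cells fixes. Of 8707 features 1.93% were at least 2-fold higher and 2.80% at least 2-fold lower. Median depth was 22424 UMIs in member-high and 16508 in other cells. Luminal markers summed to 22218 and 19043 CPM, basal markers to 13.5 and 48.4 CPM, and leukocyte markers to 51.0 and 10.9 CPM, with Cd3e at 0 in member-high cells. The part of these differences in the results was not tested.

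Of 16 other seminal fluid genes 6 reached the minimum of 5 CPM, and 4 of these were at least 2-fold higher in member-high cells. They were Wfdc15b, a WAP-domain protein (1249 against 235 CPM), Serpine2, a protease inhibitor (1232 against 447 CPM), Slpi, a secreted leukocyte protease inhibitor (14.0 against 2.03 CPM), and Pate2, a relative of Pate4 (8.73 against 1.79 CPM). Spink1, a trypsin inhibitor, was lower, at 46.5 against 417 CPM. Within cluster 2, which held 250 of the member-high cells, Wfdc15b (1335 against 624 CPM) and Slpi (20.7 against 4.22 CPM) were past 2-fold, and Serpine2 (1302 against 887 CPM) and Pate2 (11.6 against 6.41 CPM) were not. Spink1 was higher there in member-high cells, at 33.0 against 11.5 CPM, and also within cluster 5, at 93.3 against 12.7 CPM, so its pooled direction did not hold within these clusters. Tgm4, the prostatic transglutaminase that cross-links the plug, was within 2-fold, at 533 against 832 CPM. The median log2 ratio of the 6 genes was 1.88, and over all features tested it was -0.15. Svs1, Aoc1l3, Pip, Pate1, Pate3 and Wfdc15a were not analysed here.

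Of 10 prostate secretory genes, all of which reached the minimum, 4 were at least 2-fold lower in member-high cells and 1 was higher. The lower genes were Pbsn (22.7 against 357 CPM), Msmb, a microseminoprotein (2.78 against 78.0 CPM), Sbp, the spermine-binding protein (205 against 2756 CPM), and Spink1, which the seminal fluid list also holds. The higher gene was Mmp7, a matrix protease, at 2512 against 1160 CPM. Cluster 6, which held no member-high cell, had 7240 CPM of Pbsn, and within clusters 2 and 5 Pbsn was 17.2 against 24.7 and 45.0 against 24.8 CPM. Sbp was 199 against 397 CPM within cluster 2 and 101 against 120 CPM within cluster 5, and Mmp7 was 2731 against 2393 and 3007 against 3912 CPM. Msmb was 2.59 against 7.44 CPM within cluster 2 and had 5 and 10 UMIs within cluster 5. The other 5, among them Tgm4 and Defb50 (3047 against 1965 CPM), were within 2-fold. The median log2 ratio of the list was -0.62.

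Of 7 transcription factors of Wolffian duct derivatives, Hoxa10 (74.2 against 86.4 CPM) and Hoxa11 (15.7 against 14.1 CPM) reached the minimum, and neither differed by 2-fold. Pax2, Pax8 and Emx2, which act in the developing Wolffian duct, and Hoxd10 had 0 UMIs in the 388 member-high cells, where 3 UMIs would be 0.298 CPM. In the other luminal-like cells they had 4, 13, 1 and 7 UMIs, levels below that limit, so a difference was not detectable at this depth. Of 6 prostate transcription factors 5 reached the minimum, and Hoxb13 was the only one past 2-fold, at 14.4 against 37.4 CPM (14.0 against 25.5 CPM within cluster 2 and 16.3 against 15.2 CPM within cluster 5). Foxa1 was 53.5 against 76.6 CPM and Gata2 was 81.2 against 68.8 CPM.

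Of 10 epididymis genes only Lcn2 reached the minimum, at 88.5 against 39.1 CPM. Within clusters 2 and 5 it was lower in member-high cells, at 102 against 150 CPM and 127 against 193 CPM, so the pooled direction did not hold there. Crisp1 and Cst8 had no UMI in either group. Lhx1, Lcn5, Lcn8 and Rnase10 were not analysed here.

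**Figure D5:**
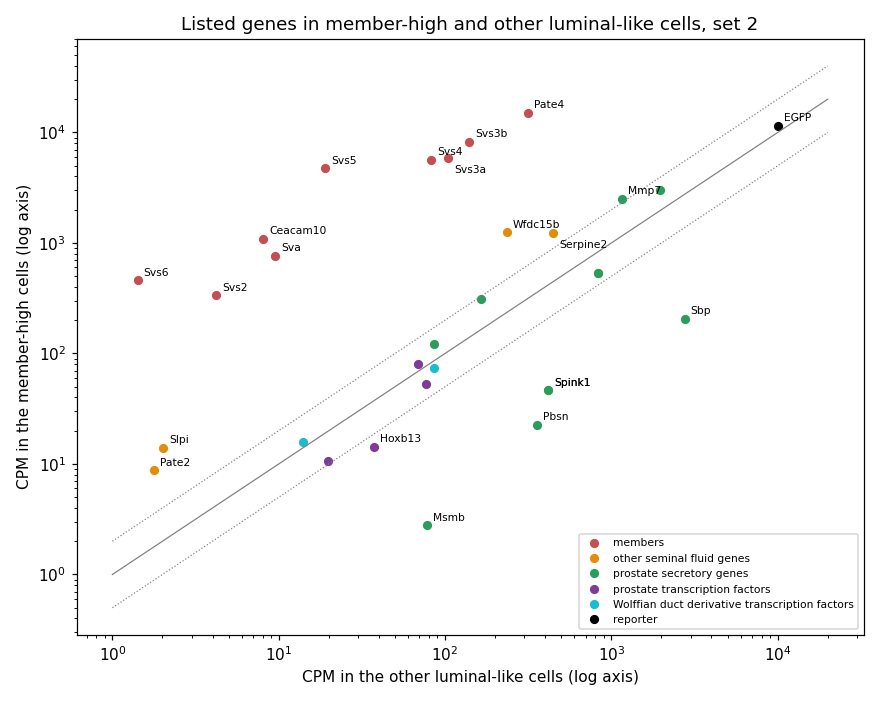
CPM of EGFP and of genes of the member, seminal fluid, prostate and Wolffian lists in the 388 member-high cells against the other 7472 luminal-like cells of set 2, on log axes and colored by list, with a solid line at equal levels and dotted lines at a 2-fold difference; epididymis genes are not drawn. Wfdc15b lies above the upper dotted line at 1249 against 235 CPM, and Sbp lies below the lower at 205 against 2756 CPM.

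Neighbors on chromosome 2, within 100 kb of the Svs genes, were listed after their values had been seen. On the Svs2 side Wfdc12 and Wfdc15b had log2 ratios between member-high and other cells of 1.79 (1.73 to 1.84) and 2.41 (2.38 to 2.44), and on the Svs5 side Slpi had 2.79 (2.49 to 3.08). Farther out Matn4 had 0.91, Stk4 had 0.05 and Sdc4 had -0.32. Other neighbors were below the minimum of 5 CPM. Of these Kcns1, Wfdc5 and Rbpjl had 2.67, 2.19 and 3.41, from 2, 6 and 6 UMIs in member-high cells. A730032A03Rik had 0 UMIs there and 12 in the other cells. No course with distance is read from these ratios. Within clusters the ratios were 0.12 for Wfdc12, 1.098 for Wfdc15b and 2.29 for Slpi in cluster 2, and 1.27 and 1.68 for Wfdc12 and Wfdc15b in cluster 5, where Slpi had 2 and 11 UMIs.

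The genes most alike to the summed members over the 7860 luminal-like cells of set 2, of 12080 genes compared, were D730048I06Rik (r = 0.72), Cd52 (0.69), Wfdc15b (0.65), B2m (0.64), Orm1 (0.55) and Plac8 (0.51). B2m, the light chain of class I major histocompatibility molecules, was 11175 CPM in member-high and 2503 CPM in other cells, and 11389 and 6338 CPM within cluster 2. Cd52, a small surface glycoprotein of lymphocytes and the male tract, was 3437 and 549 CPM, and 3245 and 1257 CPM within cluster 2. At the other end stood Aspscr1 (r = -0.36) and Npl (-0.33). In set 1 the highest of 13041 genes were Itm2b and Oit1, each with r = 0.21 over 2826 cells. The cells of a set share a library and differ in depth, and these values carry no test.

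In set 1 Ceacam10 was spread over epithelial cells. Proximal or urethral luminal-like cells had 17.5 CPM (14.9 to 20.4) and basal-like cells 16.3 CPM (14.7 to 18.1), which overlapped, and both lay above the 12.6 CPM of luminal-like cells. By luminal-like cluster it was highest in cluster 2 (24.6 CPM) and cluster 12 (23.1 CPM, detected in 34.1% of cells), whose intervals overlapped. It ran from 6.62 to 10.9 CPM in clusters 5, 6, 7 and 10. In set 2 basal-like cells had 4.54 CPM of Ceacam10, near the 5.22 CPM of the background cells.

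The other 8 genes had 105 UMIs in 49 cells of set 1, of which 43 were luminal-like. In cluster 2, 21 of 252 cells held 75 of these UMIs, 59 of them Pate4, and 19 of the 21 cells had 5 or more EGFP UMIs, as did 203 of all 252 cells. The highest cell had 16 UMIs of Pate4. None of the 49 cells carried a barcode of a member-high cell of set 2. Pate4 was 7.08 CPM in cluster 2 of set 1 and 3750 CPM in the same cluster of set 2.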

How the data were processed

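Libraries from 2 samples (10x Genomics 3′ v2) were counted by the authors with Cell Ranger 3.1.0 on mm10 with mGFP and hARtg sequences added. The deposited table holds natural log values, ln(1 + UMIs per 10000 UMIs of a cell), from which UMIs were recovered, whole for 100% of values above 0 (tolerance 0.001). Scrublet in scanpy 1.11.5, at a limit of 0.25 set after the automatic limit called 0 cells, removed 155 and 175 cells as doublets. Clusters came from anchor integration of the sets (Seurat 5.3.0, R 4.3.3, 20 dimensions, 2000 features without members or listed genes, resolution 0.5). CPM have exact Poisson, shares Clopper-Pearson and log2 ratios conditional binomial intervals. Genes below 5 CPM on both sides were left out of 2-fold counts, and 3 UMIs were the floor. With 1 library per group no test was made, and the calculations were tested on simulated data. The members and lists were chosen with earlier results of these data known. Named are all 9 members, listed genes past 2-fold with examples from each list, and the most alike genes of each set. Some listed genes are not reported here. Cluster leaders and chromosome neighbors were added after values were seen. Alternatives changed the doublets, clustering, luminal gate, cell weights, totals, top cells, background gate, splits and thinning depth.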

Additional observations from a re-analysis of the deposited data

How the results depend on the processing

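Of 75 alternative values, 34 stayed within the spread of counting, 39 moved and 2 turned direction. Values are CPM for levels and log2 ratios otherwise. Without integration the level was 11.9 (set 1) and 3150 (set 2), the set ratio 8.05, and in set 1 the EGFP ratio 0.50 and the Pbsn ratio 0.0987, a reversed direction. Splitting at 1 or more UMIs also reversed the Pbsn ratio of set 1, to 0.0825, and gave 0.48 for EGFP in set 1 and -0.53 for Pbsn in set 2. Without the top 1% of cells the levels were 9.96 and 1844, the set ratio 7.53, the ratio to background in set 2 4.02, the EGFP ratios 0.50 and 3.28, and the Pbsn ratio in set 2 -1.503. With luminal-like cells taken by a gate, set 2 had 3285, the EGFP ratios were 0.68 and 6.02 and the Pbsn ratios -0.62 and -2.04. With every cell weighing the same, set 2 had 2899, its ratio to background was 4.43, its Pbsn ratio -2.43, the EGFP ratio of set 1 0.68 and the set ratio 7.74. With doublets kept, set 2 had 3108 and a Pbsn ratio of -2.21, and with totals that leave out the members it had 3151. A stricter background gate of 3 Ptprc UMIs and none of Epcam, Krt8 and Krt18 gave at least 1.12 (0 UMIs in 101 cells) and 3.57 (4 UMIs in 3 cells). Splits after thinning gave 0.53 and 5.24 for EGFP and -1.68 for Pbsn in set 2. Other alternatives were chosen after seeing the data. For the cells highest against those lowest by share of UMIs they gave 0.50 for EGFP in set 2 and -0.55 for Pbsn in set 1. For Pbsn in set 2 the lowest group was all 6059 cells without Pbsn. That alternative therefore repeats the split at 1 or more UMIs, with -0.53, and both are among the 75. The others gave 5.02 for 5 or more against 0 to 4 EGFP UMIs in set 2 and 11.46 for the set ratio without Ceacam10. Ceacam10 in cluster 6 of set 2 was 30.3 without its highest cell. Thinning to 6000 UMIs gave shares of 6.17% and 50.9%. The cause of these shifts was not tested. No paired analysis was possible because a barcode set is 1 library and no result comes from a test. The 16 cells without EGFP in set 2 and the single member UMI in the background cells of set 1 set the precision of the ratios that use them.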
